A study of Mus musculus with 6 samples.

Results

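Iron uptake, storage and export were described through 10 genes, Tfrc, Scara5, Steap3, Slc11a2, Fth1, Ftl1, Slc40a1, Hmox1, Aco1 and Ireb2, taken by gene symbol from the 28802 genes of the deposited table. All 10 were found and all 10 passed the filter on low counts. The members were chosen by a list of symbols drawn up with the fold changes and calls of this same comparison known, so their values below are a description and no p-value is read for any of them. Messenger RNA labelled as cranial bone of Mus musculus was sequenced in 6 libraries. The 3 control libraries are labelled 0 µM metformin, and the 3 others are labelled as treated with a metformin-loaded α-CSH/nHA scaffold (calcium sulfate hemihydrate with nano-hydroxyapatite, a mineral bone filler) at 500 µM. The protocol describes a skull defect 5 mm across. Neither the strain, age nor time point is given in the labels used here, nor whether control animals or cultures received the filler without drug. The labels also leave out whether replicates came from different animals or dishes, so their spread may be technical.

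Libraries held 63174927 to 70955139 estimated counts, and the first principal component, with 40.1% of the variance, separated the groups. Control replicate 1 stood apart on the second component, at 11.9 against -3.36 and -7.20 for the other controls. The osteoblast markers were all present, with 10 of 10 at 1 FPKM or more (FPKM, fragments scaled to transcript length and library size, is the authors' level per gene length). Markers of blood and vessels were close to 0: the 8 erythroid genes measured summed to between 0.920 and 1.34 FPKM, with Epor the highest of them in each library, and Ptprc, carried by all leukocytes, lay between 0.00251 and 0.0125 FPKM. Of the 9 macrophage genes measured, only Lyz2 and Cd14 reached 1 FPKM, and the list summed to 9.63 to 13.5 FPKM in control and 11.4 to 13.2 in scaffold. None of the 6 endothelial genes reached 1 FPKM, and of 6 osteoclast genes measured Ctsk and Mmp9 did, while the osteoclast genes Acp5, Oscar, Ocstamp and Calcr reached at most 0.166 FPKM in a library. In bulk RNA, fewer cells of a type and less RNA per cell cannot be told apart.

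Cells take up iron mainly as iron-loaded transferrin, which binds the transferrin receptor (Tfrc) and is carried into endosomes. There STEAP reductases reduce ferric to ferrous iron and the transporter DMT1 (Slc11a2) moves it into the cytosol. Iron not in use is stored inside ferritin, a hollow shell of heavy (Fth1) and light (Ftl1) chains, and leaves the cell through ferroportin (Slc40a1). The iron regulatory proteins IRP1 (Aco1) and IRP2 (Ireb2) sense cytosolic iron and bind a hairpin in messenger RNA, the iron-responsive element. Bound near the start of a message they block its translation, and bound near the end of Tfrc they protect the message from decay.

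The hairpins themselves are shown first, because the iron regulatory proteins act on them. GENCODE M21 transcripts (GRCm38) were searched on the transcript strand for CNNNNNCAGTGN with the N stretch after the first C fully paired to the bases after the loop. A lower stem of 5 base pairs, in which 1 mismatch was allowed, had to enclose it, 27 bases in all. In both stems G opposite T (U in the RNA) was counted as a pair, as were A with T and G with C. A match was found in 4 of the 10 genes, against 0.137% of 21901 protein-coding genes and 0.0867% of 58797 protein-coding transcripts. The members include genes known for this element, so the share is a description. No match in the other 6 says only that their annotated transcripts hold no hairpin with these letters and this pairing; a bulged or mismatched element would be missed. Capitals mark the loop.
Fth1, 5′ UTR, chr19:9982733-9982759, plus strand: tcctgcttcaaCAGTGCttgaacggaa
Ftl1, 5′ UTR, chr7:45459780-45459806, minus strand: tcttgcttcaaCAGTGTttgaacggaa
Slc40a1, 5′ UTR, chr1:45925466-45925492, minus strand: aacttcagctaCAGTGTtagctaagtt
Tfrc, 3′ UTR, chr16:32631220-32631246, plus strand: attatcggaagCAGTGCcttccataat
Tfrc, 3′ UTR, chr16:32631599-32631625, plus strand: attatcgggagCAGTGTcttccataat
Tfrc, 3′ UTR, chr16:32631664-32631690, plus strand: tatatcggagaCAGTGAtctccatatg
Tfrc, 3′ UTR, chr16:32631711-32631737, plus strand: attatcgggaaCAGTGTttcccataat
By this search the storage and export genes held 1 match each in front of the coding sequence, and Tfrc held 4 behind it. These are counts of matches, and further elements that depart from the pattern would be missed in these genes too. The elements of Fth1 and Ftl1 share 25 of 27 bases.

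Levels per gene length spanned a wide range, and the order was led by the ferritin chains. Fth1 stood at a mean of 703 FPKM over the 6 libraries, the 47th highest level in the table, and Ftl1 at 634 FPKM, the 51st. Well below them came Hmox1 (41.7 FPKM), Scara5 (29.1), Tfrc (21.5) and Aco1 (18.2), and then Ireb2 (7.18), Slc11a2 (6.93) and Steap3 (2.22). Slc40a1, the only known cellular iron exporter, was last at 0.0617 FPKM. Some neighbours in this order did not separate. Ireb2 was above Slc11a2 in 3 of 6 libraries, and Hmox1 above Scara5 in 5 of 6. Tfrc was above Aco1 in all 3 control libraries and below it in all 3 scaffold libraries.

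**Figure D1:**
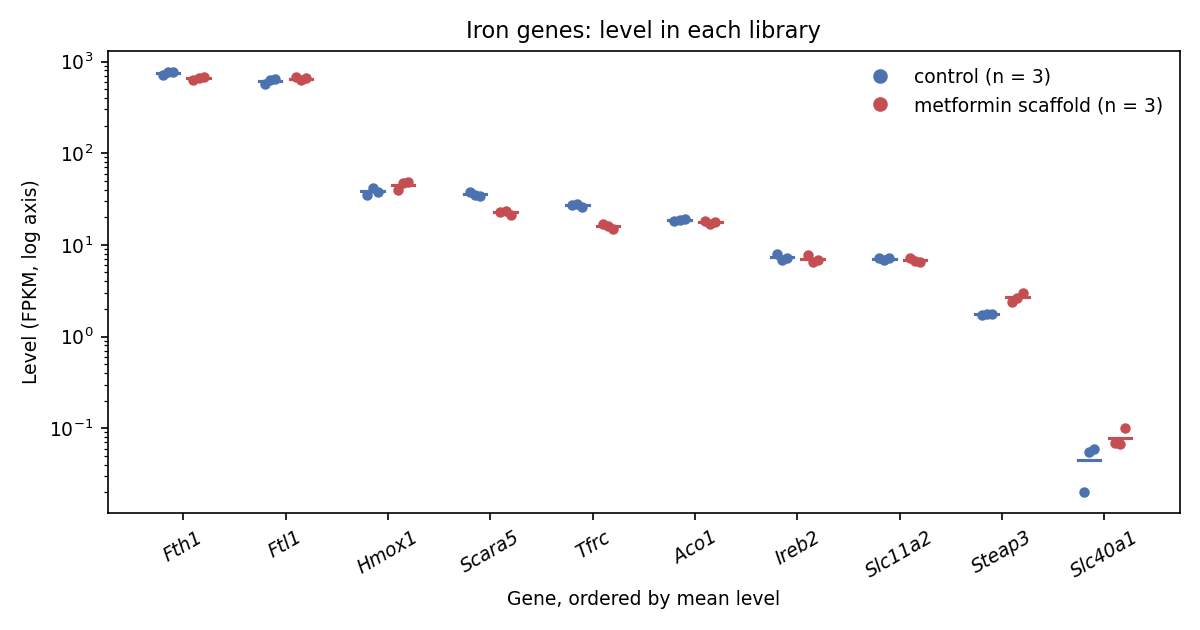
Level of each iron gene in FPKM on a log axis, by library (points) with the group mean (short line), for 3 control and 3 metformin scaffold libraries. The ferritin chains Fth1 and Ftl1 lie far above the others and Slc40a1 below 0.1, while Tfrc and Scara5 are lower and Steap3 is higher in every scaffold library than in any control library.

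Across all genes, edgeR called 749 of 17375 tested genes (4.31%) at a Benjamini-Hochberg adjusted p under 0.05, 496 higher (2.85%) and 253 lower (1.46%) in scaffold. With libraries scaled by their totals alone the split was 429 higher and 380 lower. Of the 10 iron genes, 3 were past that threshold: Tfrc and Scara5 lower, Steap3 higher. The members were picked with these calls known, so nothing is read from the share. Their median log2 fold change was -0.03, against -0.0045 over all genes tested. In 5 of the 10 the library-scaled counts (CPM) of control and scaffold did not overlap, as they did not in 24% of all tested genes.

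Both receptor genes of the set were lower with the scaffold. Tfrc (ENSMUSG00000022797, chromosome 16, 32608920 to 32632794, GRCm38) encodes the transferrin receptor, which is also known to bind heavy-chain ferritin. Its level was 26.9, 28.3 and 25.9 FPKM in control replicates 1 to 3 and 17.0, 16.0 and 14.8 FPKM in scaffold replicates 1 to 3. Every scaffold library lay well below every control library. The group means were 27.0 ± 1.20 and 15.9 ± 1.13 FPKM (SD, n = 3 in each group, here and below), and the fitted log2 fold change was -0.72 ± 0.06 (SE), so Tfrc fell by 39.4%. Leaving out single libraries moved this log2 value between -0.77 and -0.68 for Tfrc.

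Scara5 (ENSMUSG00000022032, chromosome 14, 65666403 to 65764826) encodes a scavenger receptor that takes up light-chain ferritin and was described as a transferrin-independent route of iron uptake. It measured 37.8, 34.6 and 34.4 FPKM in control and 22.9, 23.7 and 21.3 FPKM in scaffold. The groups were again apart, with the lowest control library well above the highest scaffold library. Means were 35.6 ± 1.90 and 22.6 ± 1.19 FPKM, a log2 fold change of -0.62 ± 0.06, so Scara5 fell by 34.7%. Without single libraries the log2 value stayed between -0.64 and -0.58 for Scara5.

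The 10 markers of dividing cells moved the other way in the same libraries. Their summed level was 75.5 to 83.8 FPKM in control and 114 to 118 FPKM in scaffold, and all 10 were past the threshold in the higher direction, among them Mki67, from 12.6 to 18.4 FPKM. The osteoblast markers summed to 7215 to 8240 FPKM in control and 8702 to 8873 FPKM in scaffold, with 6 of 10 higher and none lower. Of the 2 osteoclast genes tested, Mmp9 was lower, at 7.78 ± 0.650 FPKM in control and 6.15 ± 0.0786 in scaffold (edgeR adjusted p = 0.0491). That call was lost with DESeq2 size factors (edgeR adjusted p = 0.0501). Ctsk went the other way, with a log2 fold change of 0.23 ± 0.06, and was not past the threshold. The part of any of these marker lists in the lower receptor levels was not tested.

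Steap3 (ENSMUSG00000026389, chromosome 1) encodes the endosomal ferrireductase of the transferrin cycle in red cell precursors. It was low, at 1.74, 1.77 and 1.78 FPKM in control, and reached 2.40, 2.66 and 2.99 FPKM in scaffold. The control libraries were nearly level, while the scaffold libraries spread more and all lay above them. Its log2 fold change was 0.65 ± 0.10, a 1.56-fold rise, and lay between 0.56 and 0.72 for Steap3 without single libraries. Slc11a2 (ENSMUSG00000023030, chromosome 15), the exit of ferrous iron from the endosome, overlaps Gm5475 on the other strand, and no source says whether counting used strand. Slc11a2 measured 7.21, 6.92 and 7.14 FPKM in control and 7.11, 6.64 and 6.57 FPKM in scaffold. These ranges overlapped, and the log2 fold change was -0.03 ± 0.06.

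**Figure D2:**
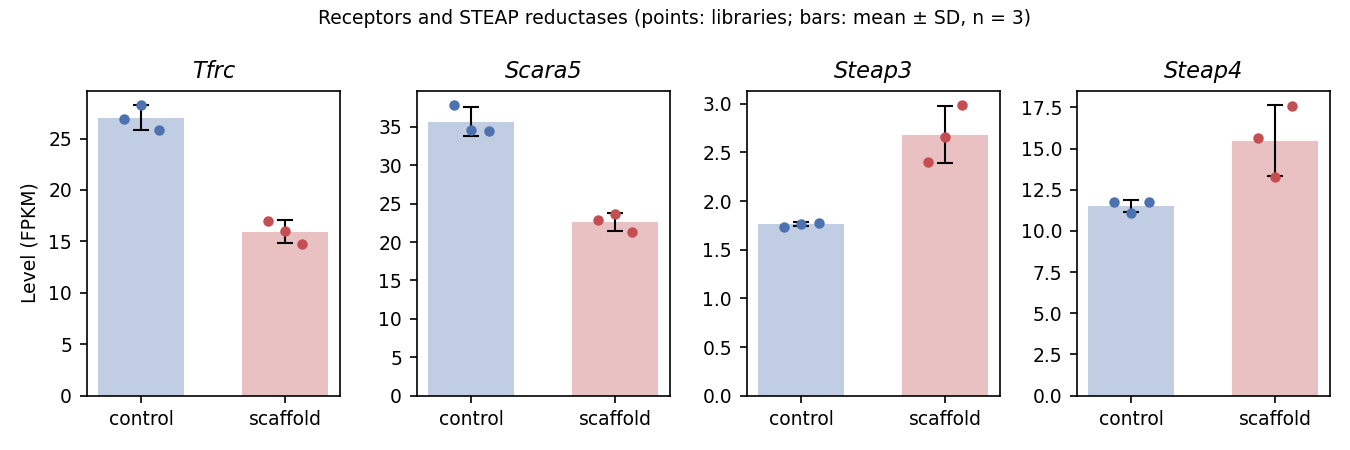
Level in FPKM of the receptor genes Tfrc and Scara5 and of the reductase genes Steap3 and Steap4, with 1 point per library and bars for the mean ± SD (n = 3 control, n = 3 scaffold). Tfrc drops from 27.0 to 15.9 FPKM and Scara5 from 35.6 to 22.6, while Steap3 goes from 1.76 to 2.68 and Steap4 from 11.5 to 15.5.

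The ferritin chains were the most abundant members, and neither was past the threshold. Fth1 (ENSMUSG00000024661, chromosome 19), the chain with ferroxidase activity, measured 708, 773 and 773 FPKM in control and 625, 665 and 676 FPKM in scaffold. All scaffold libraries lay below all control libraries, with a log2 fold change of -0.16 ± 0.06. Ftl1 (ENSMUSG00000050708, chromosome 7, 45457944 to 45459884), the chain that favours mineral formation in the core, overlaps Gm10252 on the other strand and the small RNA gene Gm22133 on its own, so its reads may be shared with them. Ftl1 measured 562, 633 and 652 FPKM in control and 676, 628 and 653 FPKM in scaffold. Here the groups overlapped, and the log2 fold change was 0.12 ± 0.07.

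Set against each other, the chains stood in a lower ratio of heavy to light with the scaffold. The ratio of Fth1 to Ftl1 FPKM was 1.26, 1.22 and 1.19 in control and 0.925, 1.06 and 1.04 in scaffold, with group means of 1.22 ± 0.0371 and 1.01 ± 0.0716. All 3 scaffold ratios were below the lowest control ratio, and scaffold replicate 1 was the only library with a higher FPKM for Ftl1 than for Fth1. In estimated counts, which are not scaled to length, Fth1 exceeded Ftl1 in every library. The ratio of counts ran from 2.40 in scaffold replicate 1 to 3.26 in control replicate 1. On the log2 scale the ratio was lower by a mean difference of -0.28, and it stayed between -0.32 and -0.22 without single libraries. The summed level was 1367 ± 84.5 FPKM in control and 1308 ± 19.0 FPKM in scaffold, a difference smaller than the control spread. As a share of estimated counts, both chains together held 0.383 ± 0.0242% in control and 0.352 ± 0.00465% in scaffold. That difference was larger than the control spread, but control replicate 1 (0.355%) lay below scaffold replicate 3 (0.357%). Processed copies of Ftl1 could take some of its reads: Ftl1-ps1 stood at 17.2 and Ftl2-ps at 8.74 FPKM, and Ftl1 itself held 97.0% of the counts of all Ftl rows. With all copies added, the log2 difference in the ratio was again -0.28, and the FPKM ratio was below 1 in scaffold replicates 1 and 3 (0.890 and 0.995).

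**Figure D3:**
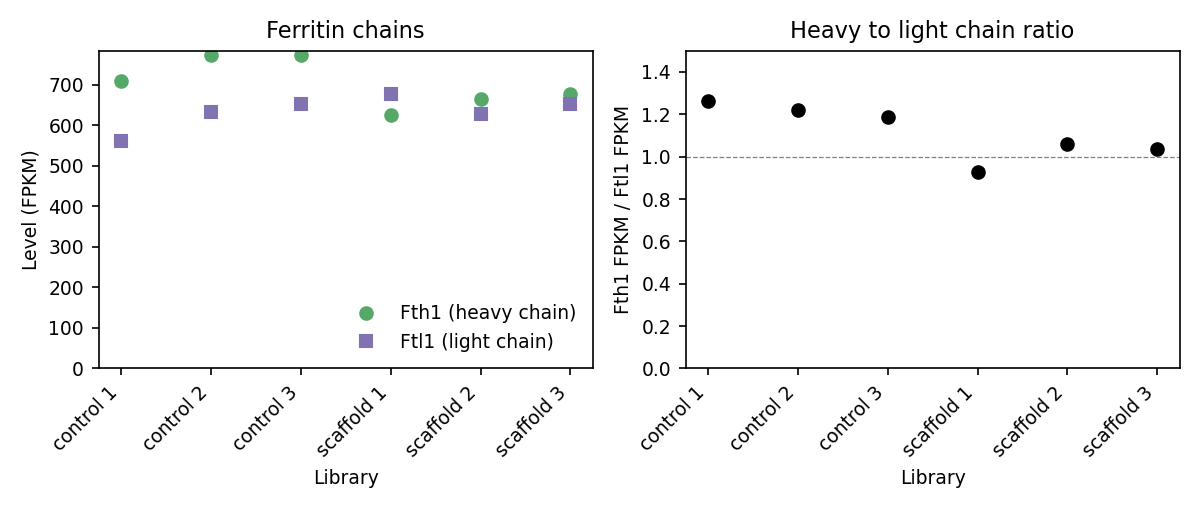
Left, level of the ferritin chain genes Fth1 and Ftl1 in FPKM in each library. Right, their ratio in each library, with a dashed line at 1; it lies between 1.19 and 1.26 in control and between 0.925 and 1.06 in scaffold.

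Ferroportin was barely detected. Slc40a1 (ENSMUSG00000025993, chromosome 1, 45908068 to 45926523) measured 0.0202, 0.0553 and 0.0597 FPKM in control and 0.0689, 0.0668 and 0.0994 FPKM in scaffold. These rest on 13, 40 and 43 estimated counts in control and 51, 47 and 66 in scaffold, and 1 read pair may be worth several counts. The scaffold libraries were the higher ones, but control replicate 1 alone sat far under the others. The log2 fold change was 0.81 ± 0.44; without control replicate 1 it was 0.46 ± 0.37 for Slc40a1. At this depth no difference could be shown.

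Hmox1 (ENSMUSG00000005413, chromosome 8, 75093621 to 75100589), haem oxygenase 1, frees iron from haem and is strongly inducible. It measured 34.9, 42.0 and 38.2 FPKM in control and 40.0, 47.2 and 48.1 FPKM in scaffold. Scaffold replicate 1 fell within the control range and the other scaffold libraries above it. The log2 fold change was 0.27 ± 0.09, and 0.35 for Hmox1 without scaffold replicate 1; Hmox1 was not among the 3 members past the threshold.

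The genes of the iron regulatory proteins themselves stayed within narrow limits. Aco1 (ENSMUSG00000028405, chromosome 4, 40143081 to 40198338), which acts as cytosolic aconitase when it holds an iron-sulphur cluster and as IRP1 without it, measured 18.4, 18.7 and 19.0 FPKM in control and 18.2, 16.8 and 17.9 FPKM in scaffold. Ireb2 (ENSMUSG00000032293, chromosome 9, 54863789 to 54912530), IRP2, measured 7.96, 6.92 and 7.13 FPKM in control and 7.72, 6.52 and 6.82 FPKM in scaffold. Scaffold values of Aco1 sat just under the control values in FPKM and overlapped them in CPM, and those of Ireb2 were mixed among them. The log2 fold changes were -0.05 ± 0.05 for Aco1 and -0.02 ± 0.07 for Ireb2, each no larger than its error. The messenger RNA levels of Aco1 and Ireb2 carry no information on the RNA binding of either protein.

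**Figure D4:**
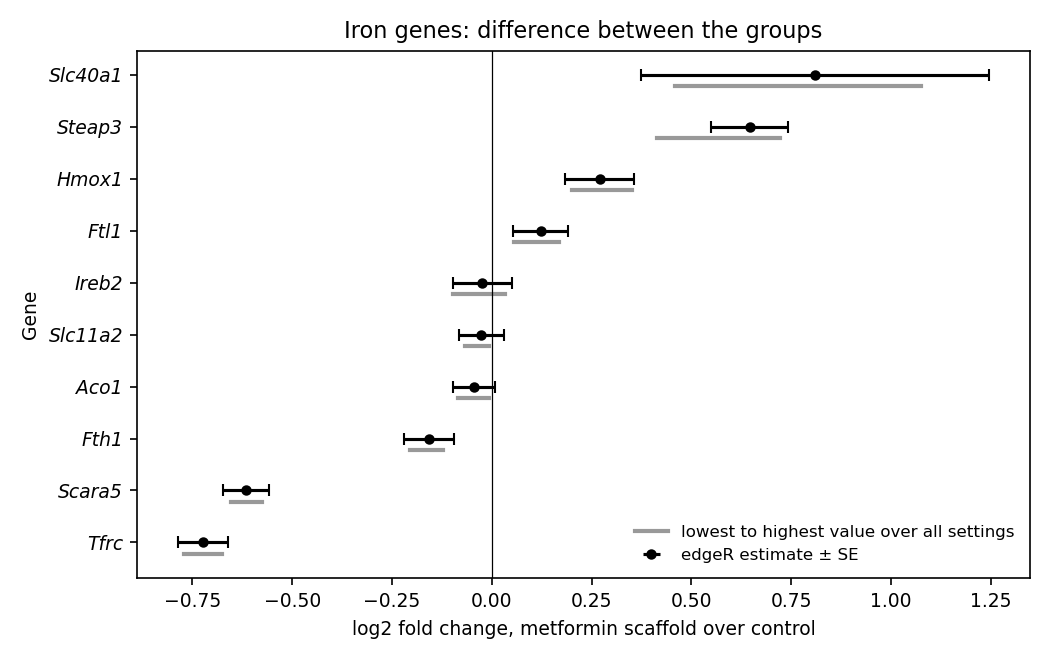
Fitted log2 fold change of each iron gene, metformin scaffold over control (black point, with its SE as the error bar), and the lowest to highest value over all settings tried (grey bar). Tfrc (-0.72) and Scara5 (-0.62) lie on the lower side and Steap3 (0.65) on the higher side in every setting in which they were tested. Fth1 also stays on the lower side and Ftl1, Hmox1 and Slc40a1 on the higher side, while Aco1, Slc11a2 and Ireb2 lie near 0.

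Partner genes of the same pathways were taken from 7 lists written from textbook knowledge, with earlier results of these data known, so their counts are not independent of the data. Of 79 tested partner genes, 1 was higher and none lower (1.27%, against 4.31% of all genes tested), with a median log2 fold change of 0.02. An unadjusted p under 0.05 was found for 12 of the 79, and for 18.1% of all genes tested, which is the background for the counts at an unadjusted p given below. The gene that rose was Steap4, a ferrireductase of the plasma membrane and endosomes and a relative of Steap3. It measured 11.8, 11.1 and 11.7 FPKM in control and 15.6, 13.2 and 17.6 FPKM in scaffold. No scaffold library reached down to the controls, although the scaffold values spread over a wider range. Its log2 fold change was 0.47 ± 0.09 (edgeR adjusted p = 0.0155), a 1.38-fold rise, and the call was lost without control replicate 2, control replicate 3 or scaffold replicate 3, with limma on FPKM and with no filter on low counts (adjusted p from 0.0518 to 0.0815).

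Among the other 13 tested uptake partners none passed with edgeR, and 1 had an unadjusted p under 0.05. The most abundant were Snx3, a sorting nexin that recycles the transferrin receptor (76.0 ± 0.762 FPKM in control, 79.5 ± 4.77 in scaffold), and the clathrin adaptor subunit Ap2m1 (34.3 ± 1.29 and 34.5 ± 1.76 FPKM). None of 6 storage partners passed either, with 1 at an unadjusted p under 0.05 (Atg9a, an autophagy protein, log2 fold change 0.21 ± 0.07). They included the iron chaperones Pcbp1 (log2 fold change 0.12 ± 0.06, edgeR adjusted p = 0.334) and Pcbp2 (0.08 ± 0.05, edgeR adjusted p = 0.451), which deliver iron to ferritin. In the list for export and hepcidin control, 0 of 7 tested genes passed, with 3 at an unadjusted p under 0.05. Of these 3, Hjv and Tmprss6 were near the floor, with 0 to 16 and 4 to 24 estimated counts per library, and the other was Cp. Cp, the ferroxidase ceruloplasmin that works with ferroportin, was by contrast with Slc40a1 abundant, at 195 ± 4.26 FPKM in control and 211 ± 12.9 in scaffold (log2 fold change 0.15 ± 0.06, edgeR adjusted p = 0.226). The second most abundant gene of that list, the hemojuvelin-binding receptor Neo1, stood at 17.5 ± 1.17 and 15.9 ± 0.575 FPKM.

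Haem and iron-sulphur genes showed no call. In haem synthesis 0 of 11 tested genes passed and 0 had an unadjusted p under 0.05, with a median log2 fold change of -0.04. Tmem14c, a mitochondrial porphyrin transporter, averaged 30.9 ± 1.67 FPKM in control against 26.3 ± 5.14 FPKM in scaffold, and Urod, a decarboxylase of the pathway, 9.82 ± 0.432 against 10.2 ± 0.675 FPKM. Of 25 genes for mitochondrial iron import and iron-sulphur assembly 0 passed, 3 having an unadjusted p under 0.05 (against 18.1% of all genes), and the median was -0.02. Its most abundant genes were the mitochondrial chaperone Hspa9, at 61.1 ± 0.512 and 60.9 ± 0.871 FPKM, and Cisd1, an iron-sulphur protein of the outer mitochondrial membrane, at 28.0 ± 1.82 and 23.8 ± 4.02. Haem breakdown and transport gave 0 of 12, with 2 at an unadjusted p under 0.05. One of these, the biliverdin reductase gene Blvrb, stood 0.32 ± 0.08 higher on the log2 scale (edgeR adjusted p = 0.0628) and was past the threshold with DESeq2 and without control replicate 3 (adjusted p = 0.0121 and 0.0456). Atg9a, Blvrb, Hjv and Tmprss6 were named after their values were seen. Haptoglobin (Hp), which binds free haemoglobin, measured 160 ± 12.2 and 164 ± 9.23 FPKM there, and the haemopexin receptor Lrp1 at 67.9 ± 6.37 and 69.2 ± 2.86.

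The last list held other messages reported to carry an iron-responsive element. None of its 4 tested genes passed, with 1 at an unadjusted p under 0.05. That gene was Cdc42bpa, a kinase for which a 3′ element has been reported in human, at 11.4 ± 0.903 FPKM in control and 9.38 ± 0.557 in scaffold (log2 fold change -0.25 ± 0.07, edgeR adjusted p = 0.0626). The log2 value of Cdc42bpa was past the threshold with DESeq2, with libraries scaled by their totals alone, with counts divided by 4 and among genes averaging 5 FPKM or more (adjusted p from 0.00286 to 0.0431).

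**Figure D5:**
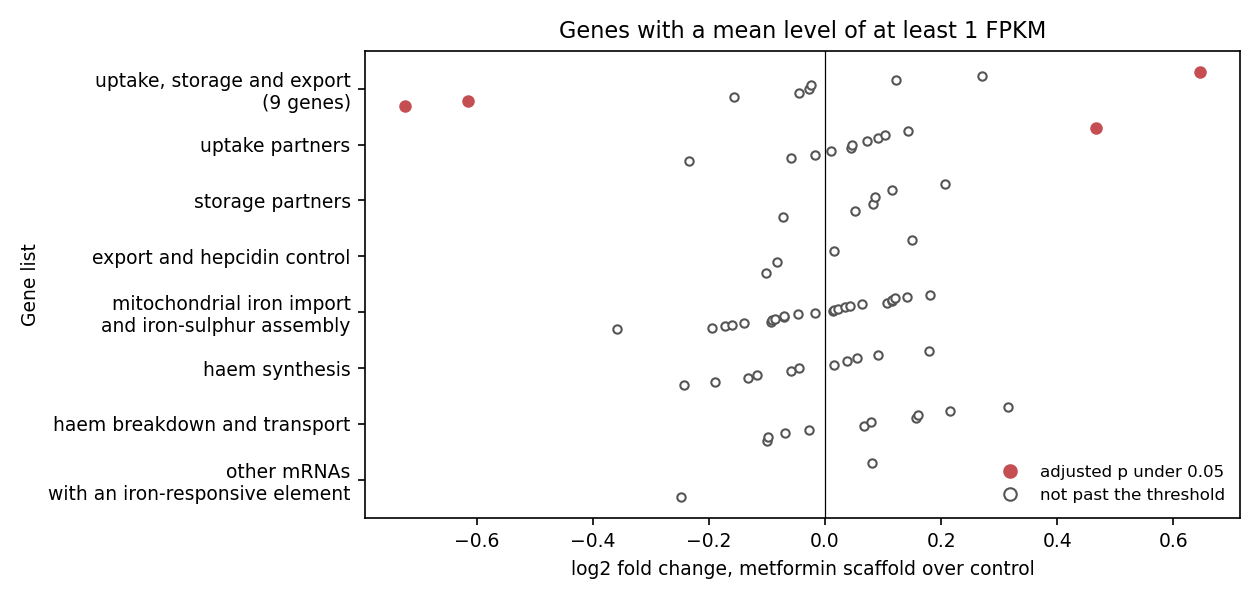
Log2 fold change, metformin scaffold over control, of every tested gene with a mean of at least 1 FPKM, by gene list; filled points passed the edgeR threshold (adjusted p under 0.05). Filled are Tfrc, Scara5 and Steap3 in the top row and Steap4 among the uptake partners; the other lists hold open points only.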

How the data were processed

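Poly(A) RNA was read as pairs of 150 bp. Per the submitters' processing notes, bcl2fastq 2.20, fastp, HISAT2, StringTie, DESeq2 and edgeR were used, with no roles given, and no genome build is named in those notes. The authors deposited FPKM values, normalised by them for gene length and library size, and estimated counts per gene. The deposited estimated counts favour multiples of 4, which hold 31.8% to 33.6% of the values between 1 and 12. One read pair may thus be worth about 4 counts, which an alternative with counts divided by 4 allows for, but most low values are not such multiples. GENCODE M21 lists 99.7% of the identifiers; coordinates are printed for genes whose ends match it.

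Counts were rounded and tested with edgeR 4.0.16 (R 4.3.3): filterByExpr with a minimum count of 10, TMM scaling, two-sided quasi-likelihood test, Benjamini-Hochberg adjustment over all genes tested. The SE is the log2 fold change divided by the square root of F. Alternatives used DESeq2 1.42.0, limma 3.58.1 on log2(FPKM + 1), other scalings and filters, and single libraries left out.

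The members and gene lists were chosen with earlier results of these data known. Of the partner genes, each that passed (at most 5 per list) and the 2 most abundant of each list are named, except 1 that is not reported here; Ptprc, Epor, Lyz2, Cd14 and Mki67 were named after their values were seen. Of 90 listed partner symbols, which include older names of the same gene, 84 were matched.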

Additional observations from a re-analysis of the deposited data

How the results depend on the processing

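The members were chosen with their calls known, so their counts across settings are bookkeeping and no support. Of the 10, 3 were past the threshold with edgeR, and 2 with genes averaging under 5 FPKM removed, which takes out Steap3. The count was 4 with DESeq2, with the replicate block and without scaffold replicate 1, in each case through Hmox1. The count of other iron pathway genes, 1 with edgeR, was 2 with libraries scaled by their totals alone, 3 with DESeq2, 0 with limma at either pseudocount, 0 with no filter on low counts, 2 at a mean of at least 5 FPKM and 2 with counts divided by 4, and 0 to 3 without single libraries; the genes involved were Steap4, Cdc42bpa, Blvrb, Atg9a and Tmem14c, the last 2 past the threshold only without scaffold replicate 1 (log2 fold change 0.28 and -0.36, edgeR adjusted p = 0.0333 and 0.0335, against 0.160 and 0.440 with all libraries). The cause of these shifts was not tested. Over all genes, calls numbered 749 with edgeR, 1430 with DESeq2, 452 and 459 with limma at a pseudocount of 1 and 0.1, 432 with no filter, and 323 to 968 without single libraries. The deviations of same-numbered control and scaffold libraries from their group means correlated at -0.0323, -0.0209 and 0.0132. Other control and scaffold pairs gave -0.0586 to 0.0693. With so few libraries these values cannot show whether same-numbered libraries shared an animal, dish or batch. The replicate block gave 651 calls and left 1 partner gene. Depth limits Slc40a1 most, at 13 to 66 estimated counts per library.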
